A study of Mus musculus with 7 samples.

Results

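Small leucine-rich proteoglycans are secreted matrix proteins built on a curved core of leucine-rich repeats, and many carry chains of chondroitin, dermatan or keratan sulfate. They bind collagen and set how fibrils grow and fuse, and several also bind growth factors such as TGF-β. In tendon they coat the collagen fibrils, and loss of single members is known to alter fibril diameter and stiffness. The 9 genes described here were chosen by symbol: Dcn, Bgn and Aspn of class I, Lum, Fmod, Prelp, Kera and Omd of class II, and Ogn of class III. They are 9 of 42689 genes to which the deposited transcripts were mapped, and all 9 passed the filter on low counts. The choice was made with results of these comparisons in view, so the values of the 9 genes and their group differences are a description, and no test is read from them.

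The study concerned heterotopic ossification, in which cartilage and bone form outside the skeleton after trauma. RNA of hindlimb tendon from mice of C57BL/6 background was sequenced in 7 libraries, and no label gives age, sex or whether animals were pooled. The tenotomy group (n = 2) was the cut Achilles tendon, taken 3 weeks after mice had received a dorsal burn (30% of the body surface, 60 °C for 18 s) together with transection of that tendon. The contralateral group (n = 3) was the uncut limb of mice with the same burn and transection, so it is not tissue of unharmed animals. The uninjured group (n = 2) came from mice that had neither. The labels do not say whether libraries of a group came from separate animals, so the spread between them may be in part technical.

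Each library held between 25926984 and 36724920 rounded counts, of which 5 features took 76.4% to 81.4%, and the 9 genes together held 9374 to 30630 counts. CPM are counts scaled to a common library total, here after TMM scaling. The uninjured libraries were not alike, with a Euclidean distance of 114.0 over log2 CPM. Replicate 1 of that label was at 59.6 and 61.1 from the tenotomy libraries, and replicate 2 at 64.5 to 67.4 from the contralateral ones. Whether the uninjured labels are right was not tested, so what both comparisons with that group mean is in doubt. The tendon markers Scx and Tnmd were detected in all libraries, at 0.464 to 1.73 and 5.41 to 28.5 CPM. The 13 muscle marker genes summed to 23786 to 26207 CPM in contralateral, 2028 and 2038 in tenotomy, 2591 in uninjured replicate 1 and 17618 in uninjured replicate 2. The tissue labelled tendon thus had high muscle markers in 4 of the 7 libraries.

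The genes lie in clusters. On GRCm38 (GENCODE M21), Dcn (97479609 to 97518143), Lum (97565128 to 97572703) and Kera (97606879 to 97613692) follow each other on the plus strand of chromosome 10. Aspn (49544443 to 49567565), Omd (49582462 to 49592822) and Ogn (49608046 to 49624501) do so on chromosome 13, with gaps of 14.9 and 15.2 kb. Prelp (133910304 to 133921414, minus strand) and Fmod (134037254 to 134048277, plus strand) lie 115.8 kb apart on chromosome 1, and Bgn (73483602 to 73495933) lies on the X chromosome. The gene Cenpp runs across Aspn, Omd and Ogn on the opposite strand and had 5 to 21 counts per library. Its exons share 7 bases with those of Aspn and 0 with those of Omd and Ogn. The antisense gene Gm15851 shares 350 exon bases with Prelp and had at most 4 counts in any library.

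RefSeq's promoter table for GRCm38.p6 held 7 of the 9 genes. The 250 bases before the start of Aspn, Omd and Ogn are printed because these neighbours had different expression patterns, and those of Bgn because its pattern was close to that of Aspn from another chromosome. Each is given 5′ to 3′ on the plus strand, with capitals for the E-box (CANNTG, the element of basic helix-loop-helix factors, which include the tendon factor scleraxis) and for TATAAA, on either strand. Aspn, at chr13:49544193-49544442, has an E-box 97 bases before the start and TATAAA matches at 178 and 207.
Aspn: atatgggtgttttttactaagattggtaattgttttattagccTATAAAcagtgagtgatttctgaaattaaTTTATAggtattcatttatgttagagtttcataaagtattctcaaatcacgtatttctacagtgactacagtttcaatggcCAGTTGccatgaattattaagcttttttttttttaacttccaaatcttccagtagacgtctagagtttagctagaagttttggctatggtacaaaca
Omd, at chr13:49582212-49582461, has neither motif.
Omd: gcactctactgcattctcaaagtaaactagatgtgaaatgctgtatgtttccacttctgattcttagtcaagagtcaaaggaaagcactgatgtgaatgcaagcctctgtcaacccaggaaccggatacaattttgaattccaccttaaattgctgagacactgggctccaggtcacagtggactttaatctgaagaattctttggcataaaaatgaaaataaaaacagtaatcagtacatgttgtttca
Ogn, at chr13:49607765-49608014, has E-boxes at 39, 63 and 162 bases and overlapping TATAAA matches at 227 and 229.
Ogn: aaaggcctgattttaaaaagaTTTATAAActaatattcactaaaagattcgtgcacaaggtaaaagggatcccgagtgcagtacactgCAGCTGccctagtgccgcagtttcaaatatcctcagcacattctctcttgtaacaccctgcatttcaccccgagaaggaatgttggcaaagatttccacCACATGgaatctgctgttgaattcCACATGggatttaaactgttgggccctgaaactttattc
Bgn, at chrX:73483351-73483600, is 64.4% G and C, against 30.0% for Aspn, and has 1 E-box at 102 bases.
Bgn: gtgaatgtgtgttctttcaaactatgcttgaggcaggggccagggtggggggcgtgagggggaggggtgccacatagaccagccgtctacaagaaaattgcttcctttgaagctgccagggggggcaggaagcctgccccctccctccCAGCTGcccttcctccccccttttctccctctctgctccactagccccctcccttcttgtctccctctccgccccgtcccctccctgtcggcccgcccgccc
Of all 32851 promoter windows of this length, 66.2% hold an E-box and 12.4% hold TATAAA, so such matches are common. In the other windows, Fmod has an E-box at 189 bases, and Kera and Prelp have neither motif. The starts are RefSeq's and differ in part from the M21 spans above. The Kera window (97606955 to 97607204) lies inside the M21 span of Kera, and the Prelp window (133921402 to 133921651) overlaps the M21 gene end. The Ogn window ends upstream of the M21 start. CAGAC, the core of Smad-binding elements, is in 42.2% of all windows and was matched in Fmod at 148 and 195 bases and in Prelp at 161. TGTGGT, a Runx motif found in 14.0% of windows, was matched in Ogn at 65 bases, where it overlaps an E-box. TGANTCA, an AP-1 motif found in 6.75% of windows, was in none of the 7.

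The tenotomy and contralateral groups were compared first, the question being how the injured tendon differed from the uncut one in mice with the same injuries. The family did not move as one. Lum, Aspn and Bgn were 14.4, 8.65 and 6.31 times higher at the tenotomy site in the fitted means, Kera was 2.47 and Ogn 1.88 times higher, Dcn, Fmod and Prelp lay within 1.25 times, and Omd was at 0.488 of the contralateral level. With edgeR's quasi-likelihood test over all 7 libraries, 4 of the 9 genes (Lum, Aspn, Bgn and Kera) passed an adjusted p of 0.05, all higher, where 29.0% of 16028 genes passed and 13.6% passed higher. Leaving out any 1 of the 5 contralateral and tenotomy libraries ended these calls, with 0 of the 9 and 0 of all genes past the adjusted threshold and 4 or 5 of the 9 at an unadjusted edgeR p under 0.05. The SE of the fit over all 7 libraries, and of these refits, draw on the spread of the unlike uninjured libraries as well. With only the groups compared, the edgeR SE of Lum, Aspn and Bgn were 0.12, 0.11 and 0.11, against 0.80, 0.73 and 0.53. DESeq2 called 5 of the 9, Ogn added, and 3743 of all 16028 genes. For 5 of the 9 genes (Lum, Aspn, Bgn, Kera and Ogn) the libraries of both groups did not overlap, where this held for 63.7% of all genes. The median log2 fold change of the 9 was 0.91, and that of all genes was -0.0012.

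**Figure D1:**
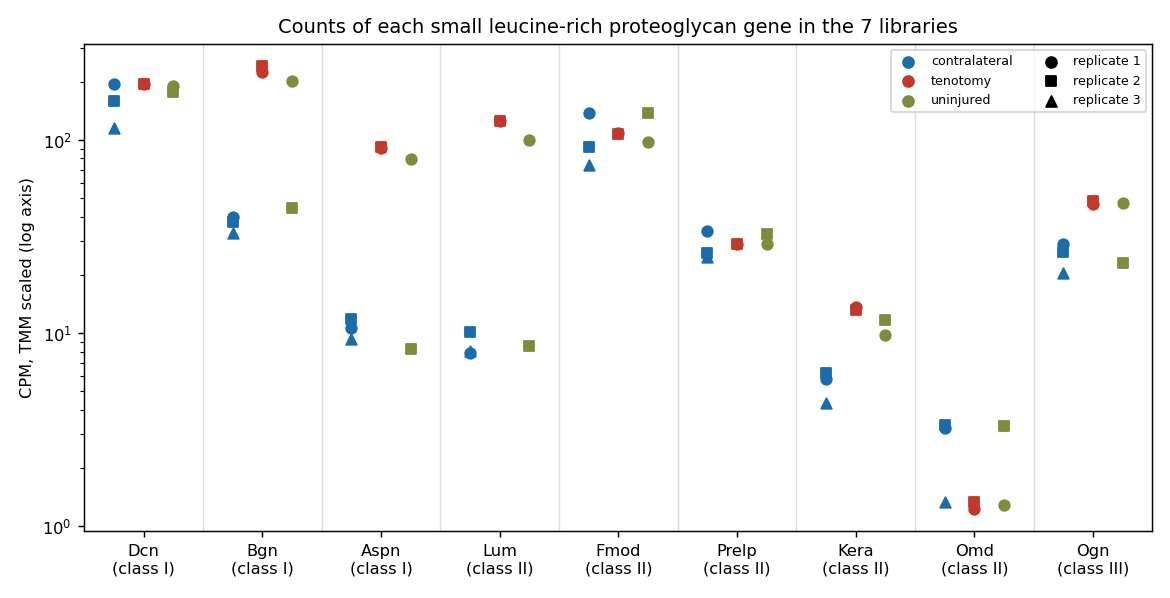
CPM of the 9 genes (log axis) in each library, colored by group, with the marker shape giving the replicate. Lum, Aspn and Bgn of both tenotomy libraries and of uninjured replicate 1 sit far above the other 4 libraries, whereas the points of Dcn, Fmod and Prelp lie together.

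Bgn encodes biglycan, a class I proteoglycan with chondroitin or dermatan sulfate chains that binds collagen and can signal through Toll-like receptors when soluble. It was at 40.0, 37.6 and 33.1 CPM in the contralateral libraries and at 225 and 240 in the tenotomy libraries. The groups were far apart, with a log2 fold change of 2.66 (SE 0.53). Aspn encodes asporin, a class I protein that lacks attached glycosaminoglycan chains and binds collagen and TGF-β. Its contralateral values were 10.6, 11.8 and 9.28 CPM, and its tenotomy values 90.9 and 91.5, for a log2 fold change of 3.11 (SE 0.73). No contralateral library came near a tenotomy library.

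Dcn encodes decorin, the closest relative of biglycan and the most abundant proteoglycan of mature tendon. It was at 194, 159 and 115 CPM in contralateral and at 194 and 195 in tenotomy libraries. Contralateral replicate 1 was thus as high as the tenotomy site and the groups overlapped (log2 fold change 0.32, SE 0.25). The class I genes thus differed in how far the groups were separated. Within libraries, the ratio of Bgn to Dcn by TPM (a level per transcript length) was 0.158 to 0.228 in contralateral and 0.889 and 0.943 in tenotomy. A ratio within a library does not depend on how libraries are scaled.

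Lum encodes lumican, a keratan sulfate proteoglycan of class II that regulates fibril assembly. It was at 7.91, 10.1 and 8.10 CPM in contralateral and 125 in each tenotomy library, the widest separation among the 9 (log2 fold change 3.85, SE 0.80). Its contralateral values rested on 211 to 355 counts per library, so counting error is small beside this gap. Kera encodes keratocan, a keratan sulfate proteoglycan best known from the cornea. It was at 5.81, 6.18 and 4.33 CPM in contralateral and 13.7 and 13.2 in tenotomy, without overlap (log2 fold change 1.30, SE 0.18).

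Fmod encodes fibromodulin, which binds collagen at the same site as lumican. It was at 137, 91.8 and 74.1 CPM in contralateral and 108 and 107 in tenotomy, so the tenotomy values fell inside the contralateral range (log2 fold change 0.09, SE 0.30). Its sign depended on the libraries used: the log2 fold change was -0.09 without contralateral replicate 3 and 0.37 without contralateral replicate 1. Prelp, whose product anchors basement membranes to the matrix below, was at 33.8, 26.1 and 24.6 CPM in contralateral and 28.7 and 29.0 in tenotomy, again inside the range (log2 fold change 0.03, SE 0.19). For both genes the estimate was within 1 SE of 0, which does not show that they were equal. The ratio of Lum to Fmod by TPM went from between 0.0900 and 0.172 in contralateral to 1.82 in each tenotomy library.

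Omd encodes osteomodulin (osteoadherin), a class II protein of mineralizing tissue. It was the scarcest of the 9, with 36 to 117 counts per library. Its level was 3.22, 3.33 and 1.33 CPM in contralateral and 1.22 and 1.33 in tenotomy. The low contralateral replicate 3 was at the level of tenotomy replicate 2, and the groups overlapped (log2 fold change -1.04, SE 0.50). Ogn encodes osteoglycin (mimecan), a class III member. It was at 28.7, 26.2 and 20.4 CPM in contralateral and 46.4 and 48.0 in tenotomy, without overlap (log2 fold change 0.91, SE 0.30). Neither gene passed the edgeR test over all 7 libraries with the filter on low counts. Of all genes, 3743 of 16028 passed in DESeq2 and 5021 of 29100 without that filter. With only the groups compared 7385 of 16014 passed. With the series of the sample titles as covariate, tenotomy replicate 1 alone represented its group, so no calls are read from that fit here. Ogn passed in DESeq2, without that filter and with only the groups compared. Its log2 fold change was 0.89 with the series as covariate, 0.92 without uninjured replicate 1 and 0.91 without uninjured replicate 2. Omd passed, lower at the tenotomy site, with only the groups compared. Its log2 fold change was -1.03 without uninjured replicate 1 and also -1.03 without uninjured replicate 2.

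Neighbours in a gene cluster thus differed. On chromosome 13, the ratio of Aspn to Omd by TPM was 2.04, 2.20 and 4.33 in contralateral libraries and 46.4 and 43.0 at the tenotomy site. On chromosome 10, the ratio of Lum to Dcn was 0.0358 to 0.0619 against 0.575 and 0.570, and that of Lum to Kera was 1.27 to 1.74 against 8.51 and 8.86. Ecm2 and Epyc, at the far ends of these clusters, are described with the other family genes.

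**Figure D2:**
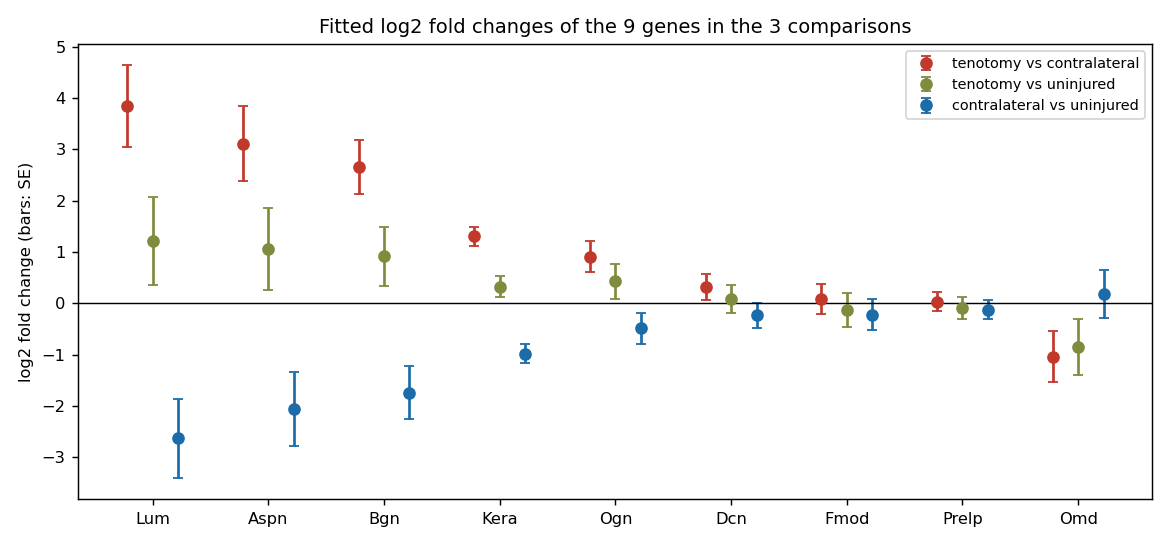
Fitted log2 fold changes of the 9 genes in the 3 comparisons, with bars for 1 SE from the fit of all 7 libraries. The genes are ordered by the tenotomy against contralateral change, from Lum at 3.85 to Omd at -1.04, and the comparisons share groups, so their values are not independent.

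Levels of the genes were compared per length, by deposited TPM. These are small because the 5 dominant features take most of each library. In contralateral tendon Dcn came first (14.0 ± 4.99 TPM, SD, n = 3), then Fmod (5.10 ± 2.13), Bgn (2.53 ± 0.502), Ogn (1.57 ± 0.443) and Prelp (1.19 ± 0.325). Aspn (0.717 ± 0.167), Lum (0.677 ± 0.155), Kera (0.459 ± 0.134) and Omd (0.296 ± 0.150) followed. Neighbours in this order lay within their summed SD except Dcn and Fmod, and Bgn and Ogn, although the order was the same in all 3 libraries apart from Aspn and Lum. At the tenotomy site the order was Dcn (16.3 ± 1.34, SD, n = 2), Bgn (14.99 ± 1.85), Lum (9.36 ± 0.711), Aspn (5.94 ± 0.486) and Fmod (5.14 ± 0.377). Ogn (2.82 ± 0.284), Prelp (1.18 ± 0.114), Kera (1.08 ± 0.0514) and Omd (0.134 ± 0.0180) followed. There Dcn and Bgn, Aspn and Fmod, and Prelp and Kera lay within their summed SD. Dcn ranked first and Omd last in all 7 libraries.

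As shares of the family's summed TPM, Lum, Bgn and Aspn together made up 12.6%, 15.7% and 17.7% in the contralateral libraries and 52.8% and 53.5% at the tenotomy site. Dcn and Fmod together went the other way, from 74.8%, 70.7% and 68.4% to 38.03% and 37.4%. Dcn alone made up 52.4% ± 1.79 (SD, n = 3) of the family in contralateral and 28.7% ± 0.276 (SD, n = 2) in tenotomy libraries, although its own level was not separated. Uninjured replicate 1, at 50.1% for Lum, Bgn and Aspn, had the make-up of the tenotomy libraries, and uninjured replicate 2, at 13.6%, that of the contralateral ones.

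**Figure D3:**
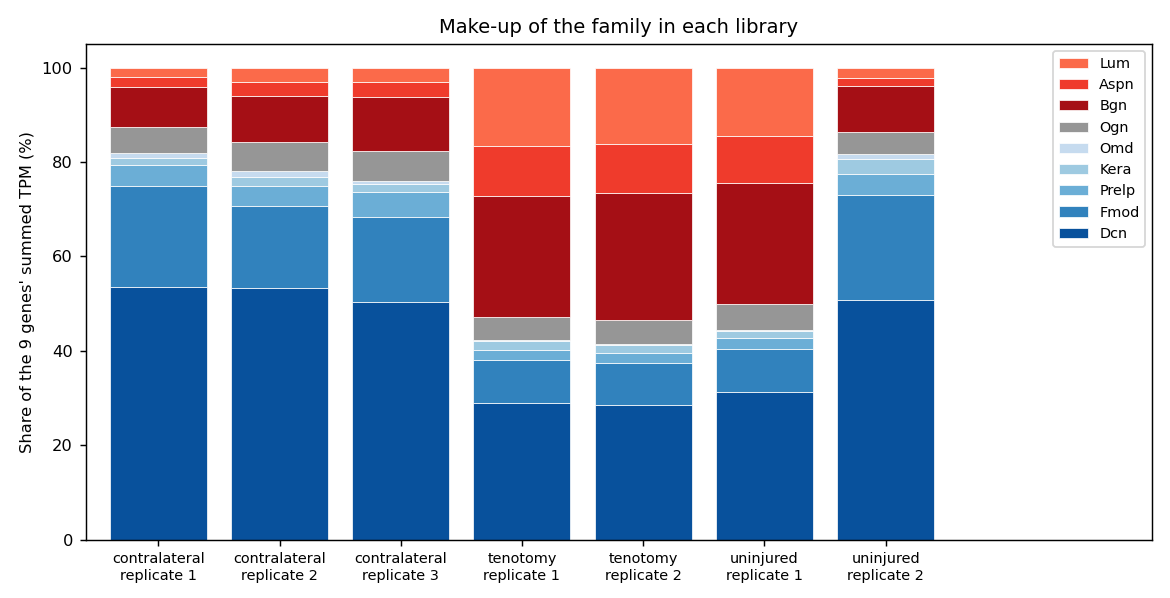
Share of each gene in the 9 genes' summed TPM (%), 1 bar per library. The red segments (Lum, Aspn, Bgn) make up 50.1% to 53.5% in both tenotomy libraries and uninjured replicate 1, and 12.6% to 17.7% in the other 4.

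Transcripts of each gene were then examined, which the choice of genes did not use. For Lum, Kera, Ogn and Omd a single transcript was quantified, and for Bgn, Fmod, Prelp and Aspn 1 transcript held at least 91.9% of the gene's counts in every library. Dcn was split between 2 protein-coding transcripts. They have 8 exons each and share 7 of them in the M21 models, and differ in the first exon: that of Dcn-201 lies at 97479609 to 97479789 and that of Dcn-202 at 97482367 to 97482547, 2758 bases downstream. Dcn-202 held 33.3%, 35.3% and 36.7% of the gene's counts in contralateral and 13.8% and 14.6% in tenotomy libraries. It was at 64.7, 56.0 and 42.1 CPM in contralateral and 26.7 and 28.4 in tenotomy, without overlap and lower at the injured site. Dcn-201 was at 129, 103 and 72.6 CPM in contralateral and 167 in each tenotomy library, without overlap and higher. The nearly level sum of Dcn thus held transcripts with opposite differences. How many of all transcripts lacked overlap was not counted, and 63.7% of all genes lacked it in this comparison. In uninjured replicates 1 and 2, Dcn-202 held 16.6% and 28.2%. An exact rank-sum test of 2 against 3 libraries cannot go below 0.2 two-sided, so no p is given. The split is the quantifier's estimate: the deposited lengths of 1886 and 1794 bases differ from the 1758 of each M21 model, so the annotation behind the estimate was another release.

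**Figure D4:**
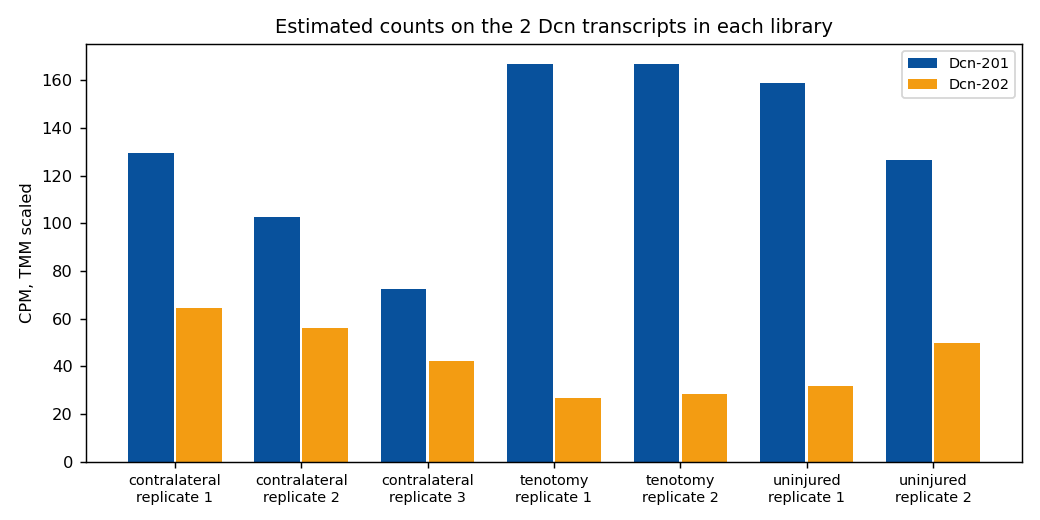
CPM of the estimated counts on Dcn-201 and Dcn-202, 1 pair of bars per library. Dcn-202 is at 42.1 to 64.7 in contralateral and at 26.7 and 28.4 in tenotomy libraries, while Dcn-201 is at 72.6 to 129 and 167.

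Markers of other cell types differed between the groups as well. Of all genes, 13.6% passed higher at the tenotomy site and 15.4% lower. At the tenotomy site 13 of 13 muscle markers fell past the threshold. The 7 macrophage and leukocyte markers summed to 27.2 to 33.5 CPM in contralateral, 119 and 122 in tenotomy, 123 in uninjured replicate 1 and 33.9 in replicate 2, and 7 of 7 rose at the tenotomy site. The 8 chondrocyte markers summed to 7.58 to 12.1, 264 and 267, 85.4 and 22.6 CPM in the same order, and all 7 tested rose. The 7 general fibroblast markers summed to 388 to 530, 1966 and 1973, 1825 and 1553 CPM, and 5 of 7 rose. Adipocyte markers summed to 122 to 153, 59.6 and 59.7, 57.1 and 163 CPM, and 3 of 6 fell. No defining marker of these lists was at 0 in all libraries, and their part in the differences of the 9 genes was not tested. In such bulk tissue, fewer cells of a type and less RNA per cell cannot be told apart. With the muscle marker genes taken out before scaling, the log2 fold changes of Lum, Aspn and Bgn were 3.85, 3.11 and 2.66. This took out only those genes and left the tissue make-up as it was, so it cannot test the part of muscle.

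The 9 other family members were read from a fixed list, chosen with earlier results of these data known. In tenotomy against contralateral, 2 rose, 2 fell and 5 did not pass. Chad, which encodes the cartilage and tendon protein chondroadherin, fell from 74.2, 49.7 and 33.5 CPM to 5.63 and 5.97 (log2 fold change -3.18, SE 0.72, edgeR adjusted p = 0.0192). Its uninjured values were 11.0 in replicate 1 and 59.6 in replicate 2. Optc, the gene of opticin next to Prelp, fell (log2 -1.64, SE 0.33, adjusted p = 0.0167 in edgeR), with 21 to 30 contralateral and 6 and 11 tenotomy counts. Tsku (tsukushi) rose by 1.63 (SE 0.27, edgeR adjusted p = 0.0167). Epyc (epiphycan), a class III cartilage gene beyond Kera on chromosome 10, had 1 to 3 counts in contralateral and 31 and 37 in tenotomy libraries (edgeR adjusted p = 0.0284), too few for a fold. Ecm2, upstream of Aspn on chromosome 13, was at 15.6 ± 3.37 CPM (SD, n = 3) and 15.2 ± 0.0587 (SD, n = 2), and Podn (podocan) at 8.04 ± 1.05 and 7.82 ± 0.0191.

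The enzymes that build the sugar chains were read from 2 further lists. Of 23 genes for chondroitin and dermatan sulfate, 22 were tested, 14 rose and 0 fell, with a median log2 fold change of 0.92. Chsy3, a chondroitin synthase, rose by 2.72 (SE 0.42), from 0.457 CPM ± 0.144 (SD, n = 3) to 3.05 ± 0.0764 (SD, n = 2). Xylt1, which starts the chain on the core protein, rose by 2.46 (SE 0.53), and the sulfotransferase gene Chst11 rose by 2.39 (SE 0.31). The edgeR adjusted p-values of these were 0.0167 to 0.0175. Of 9 genes for keratan sulfate, the chain of lumican, fibromodulin and keratocan, 6 were tested, 1 rose and 1 fell, with a median of 0.21. The share that passed, 33.3%, was near the 29.0% of all genes. B4galt1, a galactosyltransferase, rose by 0.85 (SE 0.17, edgeR adjusted p = 0.0167), and Chst1, which sulfates keratan chains, fell (log2 -1.55, SE 0.39, adjusted p = 0.0253 in edgeR). Whether the lists differ from each other was not tested.

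All 11 collagens of the partner list rose, where 13.6% of all genes did, but the list was chosen with earlier results known. Col2a1, the cartilage collagen, rose by 7.98 (SE 0.94), the fibril-associated Col14a1 by 3.51 (SE 0.61) and Col3a1 by 3.39 (SE 0.56, edgeR adjusted p = 0.0167 for each). Col3a1, typical of healing tendon, was at 192 CPM ± 18.8 (SD, n = 3) in contralateral and 2005 ± 8.64 (SD, n = 2) in tenotomy libraries. Of the list of proteases and tyrosine sulfation enzymes, 12 of 13 were tested, 9 rose and 0 fell. Mmp13, a collagenase that can cut fibromodulin and biglycan, had 0 to 3 counts in contralateral and 933 and 1111 in tenotomy libraries (edgeR adjusted p = 0.0167). The stromelysin gene Mmp3 rose by 5.30 (SE 1.11, edgeR adjusted p = 0.0171) and Mmp14, whose product is known to cut lumican, by 3.97 (SE 0.72, edgeR adjusted p = 0.0167). Of 13 genes for receptors and growth factors, 5 rose and 0 fell, so that 38.5% passed, where 29.0% of all genes did. Tlr2, a receptor for soluble biglycan, rose by 2.07 (SE 0.32, edgeR adjusted p = 0.0167), Cd44 by 1.89 (SE 0.32, edgeR adjusted p = 0.0167), and Tgfb1, a ligand of decorin, biglycan and asporin, by 1.14 (SE 0.34, edgeR adjusted p = 0.0419).

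The 6 lists were chosen with earlier results of these data known, so their counts are a description. No test is read from their contrast with all genes. Over these 6 lists, 42 of 73 tested genes rose and 3 fell, against 13.6% and 15.4% of all genes. As with all calls of this comparison, 0 remained when any contralateral or tenotomy library was left out, when 45 to 50 of these genes had an unadjusted edgeR p under 0.05.

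**Figure D5:**
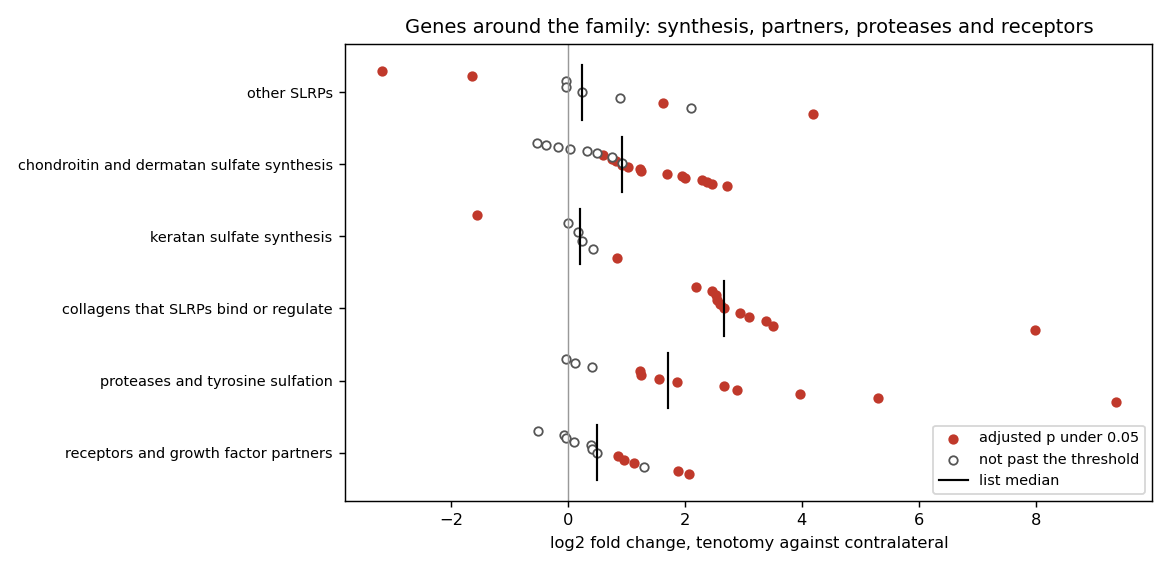
Log2 fold changes of tenotomy against contralateral for the genes of 6 lists around the family, 1 point per tested gene, filled where the edgeR adjusted p was under 0.05, with a bar at the list median. The collagens all lie above 2, whereas the keratan sulfate genes run from -1.55 to 0.85.

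The uninjured libraries were compared next, first with the tenotomy site and then with contralateral tendon, the question being how each differs from tendon of mice without injury. For Lum, Aspn and Bgn the uninjured values were split. Lum was at 99.3 CPM in uninjured replicate 1 and 8.60 in replicate 2, 11.5 times apart. Aspn was at 79.4 and 8.29 and Bgn at 203 and 44.3. Replicate 1 lay near the tenotomy values and replicate 2 near the contralateral values for each of the 3. Ogn (47.2 and 23.0) and Omd (1.29 and 3.30) were split in the same way, Omd with the higher value in replicate 2. Dcn (191 and 177), Fmod (97.6 and 137), Prelp (29.0 and 32.4) and Kera (9.81 and 11.7) were less than 1.5 times apart.

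Tenotomy against uninjured therefore gave wide errors. The log2 fold changes were 1.21 (SE 0.85) for Lum, 1.06 (SE 0.79) for Aspn, 0.92 (SE 0.58) for Bgn and -0.85 (SE 0.54) for Omd. Of the 9 genes 0 passed the adjusted threshold in edgeR, and 0% of all genes did, while 0 of the 9 and 1741 of all genes had an unadjusted p under 0.05. DESeq2 called 0 of the 9 as well. The libraries did not overlap for 5 of 9 genes (Lum, Dcn, Bgn, Kera and Aspn), where this held for 40.5% of all genes, and the median was 0.32 against -0.015 for all genes. Without uninjured replicate 1 the log2 fold changes were 3.87 (SE 0.19) for Lum, 3.46 (SE 0.18) for Aspn and 2.40 (SE 0.17) for Bgn. Without uninjured replicate 2 they were 0.34 (SE 0.15), 0.20 (SE 0.14) and 0.20 (SE 0.15). Each of these fits left 1 library in the uninjured group, so no calls are read from them here.

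Contralateral against uninjured gave -2.63 (SE 0.78) for Lum, -2.05 (SE 0.72) for Aspn and -1.74 (SE 0.52) for Bgn. Again 0 of the 9 passed in edgeR with the filter on low counts, as did 0% of all genes, with 4 of the 9 and 3084 of all genes at an unadjusted p under 0.05. DESeq2 called 3 (Bgn, Kera and Lum) and 223 of all 16028 genes. Without the filter on low counts edgeR called the same 3 and 337 of 29100. With the series of the sample titles as covariate, uninjured replicate 1 alone represents its group, so no calls are read from that fit here. Its log2 fold changes were -3.51 for Lum, -2.90 for Aspn and -2.36 for Bgn. The libraries did not overlap for 2 of 9 genes (Bgn and Kera), where this held for 35.5% of all genes. Without uninjured replicate 1 the changes of Lum and Aspn were 0.02 (SE 0.17) and 0.35 (SE 0.16), and without replicate 2 they were -3.51 (SE 0.13) and -2.91 (SE 0.13). Kera was lower in contralateral tendon than in either uninjured library, and by similar amounts, with -0.98 (SE 0.19) in the full fit, -1.11 (SE 0.17) without replicate 1 and -0.85 (SE 0.17) without replicate 2. Bgn was also below both, but unevenly, with -0.26 (SE 0.14) without replicate 1 and -2.46 (SE 0.13) without replicate 2. Both comparisons share the uninjured libraries, so their values are not independent.

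The numbers in the sample titles fall in 3 series, which no label calls a batch. Tenotomy replicate 1 is in the series of the contralateral libraries, and there exceeded their mean log2 CPM by 3.86 for Lum, 3.12 for Aspn, 2.61 for Bgn, 1.35 for Kera and 0.90 for Ogn, and differed by -0.99 for Omd. Tenotomy replicate 2 is in the series of uninjured replicate 1 and exceeded that library by 0.33 for Lum, 0.25 for Bgn, 0.21 for Aspn and 0.42 for Kera. Uninjured replicate 2 is alone in its series.

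Genes with a pattern most like the family's were found by the root mean square difference between each gene's log2 CPM over the 7 libraries, centred on its own mean, and the mean centred profile of the 9 genes. Of 2067 genes with a mean log2 CPM of at least 3, the closest were Tgfbr2, the type II TGF-β receptor (0.0662), Eef1a1 (0.0844), Iqgap1 (0.0873), Vim (0.0922) and Serping1 (0.0944), where the median gene was at 0.692. The 9 genes themselves ranged from 0.167 (Ogn) to 1.29 (Lum), so the mean profile was near Ogn and Kera (0.332) and far from Lum, Omd (1.10) and Aspn (0.996).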

How the data were processed

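RNA-seq of 7 mouse hindlimb tendon libraries was analysed. Per the labels' protocols, total RNA was isolated with Trizol and cleaned on a column before TruSeq library preparation. The submitters' processing notes name FastQC 0.11.4, kallisto without a version and the build GRCh38, which is human, although all transcript IDs are of mouse. Each deposited file gives estimated counts per transcript, unscaled and in part not whole. It also gives TPM, which the authors' quantifier scales by effective length to 1 common total, per the file headers. Whether counting used strand is not given in the sources used here.

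Of 103639 transcripts, 101510 matched GENCODE M21 (GRCm38) without their version. Estimated counts were summed per gene and rounded. The 2129 unmatched transcripts stayed as single features. The filterByExpr function of edgeR 4.0.16 (minimum count 10) left 16028 features, called genes. Groups were tested in edgeR (R 4.3.3) by quasi-likelihood with TMM scaling (trimmed mean of M values), fitting 3 group means at once, with Benjamini-Hochberg adjustment over all genes and a threshold of 0.05. An SE is the log2 fold change divided by the square root of F. Log2 CPM used a prior count of 2. On simulated counts of 16028 genes for tenotomy against contralateral, 192 of 200 genes changed by 2 on the log2 scale were called, with 17 others. The changed genes were drawn from well-counted genes only, and no other gene differed between groups. The result thus does not cover genes with low counts or data with many differences.

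Groups came from the condition label, and replicates were numbered in accession order, which pairs nothing. Members and lists were chosen with earlier results of these data known. Named genes were the 9 members, up to 3 rises and 2 falls per list past the threshold without overlap of libraries, and the 5 genes most like the members. Alternatives were RLE scaling, DESeq2 1.42.0, no filter, only the groups compared, length-scaled TPM, muscle markers removed, the title series as covariate and leaving out each library. Endothelial, erythroid and tendon marker lists were also read. At the tenotomy site 1 of 5 endothelial markers fell, 2 of 5 erythroid rose and 4 of 7 tendon markers rose. Of all genes, 13.6% passed higher there and 15.4% lower.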

Additional observations from a re-analysis of the deposited data

How the results depend on the processing

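No paired analysis was possible because the labels carry no replicate numbers shared between groups. In tenotomy against contralateral, the log2 fold change of each of the 9 genes stayed within 1 SE of its main value in all 126 refits over 14 settings. This is a weak check. The main SE draws on the unlike uninjured libraries as well (0.80 for Lum, against 0.12 with only the groups compared). Some settings also left the tenotomy and contralateral counts as they were. Over all settings Fmod ran from -0.09 to 0.37 and Omd from -1.36 to -0.82. Fitting only the groups compared called 7385 genes in place of 4643. Leaving out 1 library gave 0 to 7336 genes, 0 to 6 of the 9 members and 0 to 54 genes of the 6 lists. It was 0 without any contralateral or tenotomy library, and 6 members without either uninjured library.

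In tenotomy against uninjured, where edgeR over all libraries with the filter called 0, DESeq2 called 145 genes, no filter 15 and the series covariate 4, of which 2, 1 and 1 were in the 6 lists. Leaving out 1 library gave 0 to 4275 genes, 0 to 5 members and 0 to 42 list genes, the highest values all without uninjured replicate 1. In contralateral against uninjured, DESeq2 called 223 genes, no filter 337 and the series covariate 2466, with 3 members each (not the same 3 for the covariate), and 16, 16 and 30 list genes. The series covariate leaves uninjured replicate 1 alone to represent its group. The tenotomy group then rests on replicate 1 alone against contralateral tendon, and on replicate 2 alone against uninjured. Leaving out 1 library gave 0 to 5393 genes, 0 to 5 members and 0 to 47 list genes, the highest values all without uninjured replicate 2. The cause of these shifts was not tested. Where 1 library was left in a group, it was assumed to vary like the others. Low counts limit the values of Omd, Epyc, Optc and Mmp13, among others.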

Other observations

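Col1a1, Lum and Aspn were not alike in the library labelled uninjured replicate 2, a contrast chosen after its values were seen. Col1a1 was at 2214 CPM there, near the 2565 and 2583 of the tenotomy libraries and the 2357 of uninjured replicate 1, and above the 373 to 478 of the contralateral libraries. In the same library Lum, at 8.60 CPM, and Aspn, at 8.29, were at contralateral levels, and Col3a1, at 384 CPM, lay between the contralateral mean of 192 and the tenotomy mean of 2005. Kera, at 11.7 CPM, was nearer to the tenotomy libraries (13.7 and 13.2) than to the contralateral ones (4.33 to 6.18). Its Chad, at 59.6 CPM, was within the contralateral range of 33.5 to 74.2. It is a single library, so no test was made.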
